A study of Homo sapiens with 6 samples.

Results

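Of the 1981 rows of the deposited table that carry a name of a U-type small nuclear RNA (snRNA), 30 were above 0 TPM (the length-corrected share of transcripts that a row holds in its library) in at least 1 of 6 libraries of HGC-27 cells, out of 58233 gene rows in all. These 30 rows, chosen by name and by a level above 0 in any library, are described here: 14 belong to U1, 13 to U2, 1 to U4 and 2 to U6. HGC-27 cells are an established human gastric cancer line. RNA was sequenced 72 h after transfection, with RNAIMAX, of a mixture of siRNAs against STRN3 (siSTRN3, 3 libraries) or of a negative control siRNA (siNC, 3 libraries). The product of STRN3, striatin-3, brings substrates to protein phosphatase 2A. A TPM keeps no read number, so depth is unknown throughout. Nothing in the labels ties the 3 libraries of a group to separate cultures, and the spread that the p-values rest on may be technical.

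Spliceosomal snRNAs are short RNAs without a poly(A) tail that form, with proteins, the particles that remove introns. U1 pairs with the start of an intron and U2 with its branch point, while U4, U5 and U6 join as one particle. U11, U12 and the ATAC snRNAs take the corresponding places in the minor spliceosome, and U7 acts outside splicing, in the cutting of histone messages. RNA polymerase II makes most of them and RNA polymerase III makes U6 and U6atac. Human cells carry many near-identical copies of each gene and far more pseudogenes.

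The sequences below, from GENCODE release 29 (GRCh38), are shown because they decide which of these rows can be told apart. Capitals mark, in the U1 rows, the letters that pair with the start of an intron and, in the U2 rows, the letters that pair with the branch point. RNU1-1 lies at chr1:16514122-16514285, RNVU1-7 at chr1:148038753-148038916 and RNVU1-6 at chr1:146052081-146052244, all on the minus strand. RNU2-1 lies at chr17:43233787-43233977 and RNU2-2P at chr11:62841619-62841809, both on the minus strand.
RNU1-1: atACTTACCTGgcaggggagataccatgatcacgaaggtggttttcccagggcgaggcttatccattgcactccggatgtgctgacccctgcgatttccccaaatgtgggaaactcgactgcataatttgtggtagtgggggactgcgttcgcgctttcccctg
RNVU1-7: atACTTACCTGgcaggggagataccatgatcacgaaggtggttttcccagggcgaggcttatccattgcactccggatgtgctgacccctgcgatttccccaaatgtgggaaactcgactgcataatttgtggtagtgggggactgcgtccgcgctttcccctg
RNVU1-6: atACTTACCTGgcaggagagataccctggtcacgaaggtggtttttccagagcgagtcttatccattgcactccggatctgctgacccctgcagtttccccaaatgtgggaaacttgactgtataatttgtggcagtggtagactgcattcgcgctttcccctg
RNU2-1: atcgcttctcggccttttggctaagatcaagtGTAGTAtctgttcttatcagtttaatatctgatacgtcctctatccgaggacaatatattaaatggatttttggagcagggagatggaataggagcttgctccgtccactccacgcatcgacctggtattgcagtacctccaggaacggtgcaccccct
RNU2-2P: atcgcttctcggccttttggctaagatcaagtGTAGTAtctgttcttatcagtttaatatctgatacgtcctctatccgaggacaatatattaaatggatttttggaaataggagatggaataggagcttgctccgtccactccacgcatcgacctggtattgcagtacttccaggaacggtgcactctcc

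Of the 30 rows 16 have a symbol that is unique in the annotation; the other 14 are named only U1 (3 rows) or U2 (11 rows) and cannot be tied to a locus. The sequence of RNU1-1 was shared, letter for letter, by 7 named members: RNU1-1, RNU1-2, RNU1-3, RNU1-4, RNVU1-18, and RNU1-27P and RNU1-28P, whose symbols mark them as pseudogenes. In all, 8 annotated snRNA transcripts had that sequence. RNVU1-7 differed from RNU1-1 only by T150C, counted from 1 at the first base of RNU1-1. RNVU1-6 differed from it at 15 of 164 bases, and RNU1-106P and RNU1-39P matched it over 91.5% of the alignment each. All 11 located U1 rows kept the ACTTACCTG stretch at bases 3 to 11. For U2, 11 annotated transcripts had the sequence of RNU2-1, and RNU2-1 was the only one of them with a unique symbol. RNU2-2P differed from RNU2-1 at 8 of 191 bases, of which G108A, C109A, A110T and G111A lie together, and both kept GTAGTA at bases 33 to 38. The other copies with the RNU1-1 sequence lie on chromosome 1 (RNU1-3 at 16666785 to 16666948, RNU1-4 at 16740516 to 16740679, RNU1-2 at 16895980 to 16896143 and RNVU1-18 at 143729407 to 143729570) and on chromosome 14 (RNU1-27P at 34546714 to 34546877 and RNU1-28P at 34556226 to 34556389). Each is annotated as a small nuclear RNA gene, and RNU1-2 and RNU1-4 lie within the protein-coding gene CROCC on the same strand. Because reads from identical copies cannot be told apart, levels were summed by snRNA before they were compared.

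The libraries showed the following as a whole. STRN3 was at 4.76, 5.0 and 5.56 TPM in the libraries labelled siSTRN3 and at 3.51, 5.30 and 3.85 TPM in the siNC libraries, so it was not lower as the label would have it (log2 fold change 0.77 relative to the median gene, limma adjusted p = 0.00867; 0.24 as deposited, adjusted p = 0.141), and the groups are called by their labels throughout. Rows of the nuclear ribosomal RNA repeat named RNA5-8S, RNA18S, RNA28S or RNA45S took 22.5% to 23.2% of the TPM total in the libraries labelled siSTRN3, against 8.64% to 9.21% in the siNC libraries, a difference larger than the spread within either group. The median log2 fold change over 12994 tested features was -0.56 as deposited, so each library was also rescaled to the same median, and a fold change below is set against the median gene unless it is called deposited. Epithelial markers were low (EPCAM, KRT8, KRT18, KRT19 and CDH1 at no more than 1.08 TPM in any library), and leukocyte and endothelial markers were at no more than 0.24 TPM. Of the mesenchymal markers, VIM stood at 1718 to 1753 TPM in the libraries labelled siSTRN3 and 2984 to 3058 TPM in siNC, FN1 stood at 3.28 to 5.96 TPM in the libraries labelled siSTRN3 and 6.33 to 7.78 TPM in siNC, and CDH2 was at no more than 0.11 TPM in any library. Of the fibroblast markers, DCN stood at 72.4 to 80.4 TPM in the libraries labelled siSTRN3 and at 162 to 170 TPM in siNC, and LUM at 44.5 to 51.7 TPM in the libraries labelled siSTRN3 and at 87.8 to 93.0 TPM in siNC, whereas PDGFRB overlapped between the groups, at 0.82 to 1.28 TPM in the libraries labelled siSTRN3 and 0.96 to 1.44 TPM in siNC. The part of these whole-library differences in the snRNA values was not tested.

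U1 RNA rose in the libraries labelled siSTRN3. Its 14 rows summed to 2541, 2298 and 2557 TPM in the libraries labelled siSTRN3, against 1176, 1185 and 1217 TPM in the siNC libraries. The groups did not overlap, and the lowest library labelled siSTRN3 stood far above the highest siNC library. The means were 2465 ± 145 TPM in the libraries labelled siSTRN3 and 1193 ± 21.4 TPM in the siNC libraries (SD, n = 3 each), or 2.07 times as much. Relative to the median gene the log2 fold change was 1.70 ± 0.039 SE (limma on the whole table, adjusted p = 4.24e-06), and on the deposited scale 1.05 ± 0.044 SE (adjusted p = 3.99e-06). Of all 12994 tested features, 11% were called higher relative to the median gene and 1% on the deposited scale, and groups that did not overlap, with siSTRN3 higher, were found for 20.5% and 1.15% of features on the same scales; 34 features had a larger log2 fold change than U1. The call held without any one library, with log2 fold changes of 1.67 to 1.74. In a bulk library, more of an RNA per cell and more cells that hold it cannot be told apart.

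U2 RNA rose as well, with a wider spread. Its 13 rows summed to 377, 211 and 193 TPM in the libraries labelled siSTRN3, against 99.1, 77.6 and 24.2 TPM in the siNC libraries. The groups did not overlap, but siSTRN3 replicate 1 stood above the other libraries of its group and siNC replicate 3 below those of its own. The mean was 260 ± 101 TPM in the libraries labelled siSTRN3, against 67.0 ± 38.6 TPM in the siNC libraries (SD, n = 3 each), or 3.89 times as much. The fitted log2 fold change stood at 2.74 ± 0.52 SE (limma, adjusted p = 0.0135), and 2.10 ± 0.52 SE as deposited (adjusted p = 0.00787). Without siNC replicate 3 it was 2.14 (adjusted p = 0.0137), and the call held without any one library (adjusted p = 0.0137 to 0.0402). With pseudogene symbols and rows named only U2 left out, RNU2-1 alone remained and the call was lost (limma, 2.32, adjusted p = 0.293). RNU2-1 is 1 of 11 annotated transcripts with its sequence and was high in siSTRN3 replicate 2 alone. Reads of identical copies cannot be told apart, so this setting cannot decide whether the U2 sum rose.

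**Figure D1:**
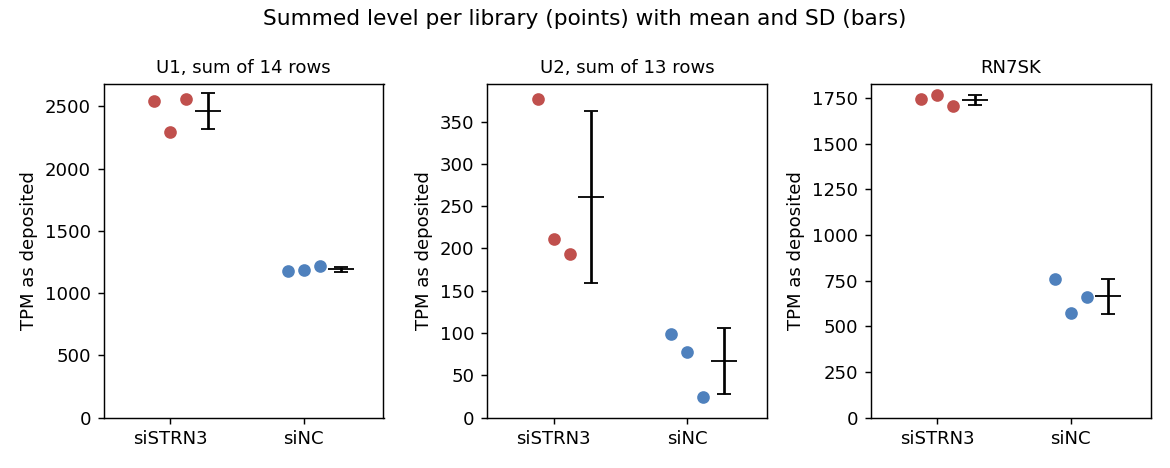
TPM as deposited in each library (points), with the group mean and SD (bars, n = 3), for the sum of U1 rows, the sum of U2 rows and RN7SK, the 7SK RNA; each axis starts at 0. The libraries labelled siSTRN3 lie above all siNC libraries in each panel, with U2 sums of 193 to 377 TPM against 24.2 to 99.1 TPM.

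U1 made up most of the snRNA signal. Together the members summed to 2920, 2509 and 2756 TPM in the libraries labelled siSTRN3, against 1280, 1272 and 1242 TPM in the siNC libraries. That was 0.260% to 0.302% of the TPM total in the libraries labelled siSTRN3 and 0.126% to 0.130% in the siNC libraries. U1 held 87.0% to 92.8% of the sum in the libraries labelled siSTRN3 and 91.8% to 98.0% in siNC, and U1 and U2 together held at least 99.3% in every library. The ratio of U2 to U1 was 0.148, 0.0918 and 0.0756 in the libraries labelled siSTRN3, against 0.0843, 0.0654 and 0.0199 in the siNC libraries. These ranges overlapped, and a difference between the rises of U2 and U1 was not shown (log2 difference 1.08, exact 2-sided permutation test p = 0.2, with 0.1 the smallest that 3 against 3 can give).

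The U1 sum was divided among its rows differently in each library. In siSTRN3 replicate 1, RNU1-1, RNVU1-18 and RNU1-28P held the same value, 796 TPM, within 0.1 TPM. In siSTRN3 replicate 2 RNVU1-18 and RNU1-27P held 376 TPM, and RNU1-1 and RNU1-2 held 753 TPM, which is double. In siSTRN3 replicate 3, 6 rows held 407 TPM. The same was seen in the siNC libraries, where 7 rows held 162 TPM in replicate 1, 9 rows held 126 TPM in replicate 2 and 6 rows held 197 TPM in replicate 3. Rows at that shared value or at its double held 94.0% to 98.3% of the U1 sum in the libraries labelled siSTRN3 and 96.0% to 97.0% in siNC. In siNC a row held less where more rows shared the value. In siSTRN3 replicate 2, 2 rows held 376 TPM and 2 more held double that, against 6 rows at 407 TPM in replicate 3. A count of rows that leaves out the doubled ones therefore does not give the order in siSTRN3.

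Single U1 rows varied accordingly between libraries of one group. RNU1-1 stood at 796, 753 and 0 TPM in the libraries labelled siSTRN3, against 162, 126 and 197 TPM in the siNC libraries. It was the highest or joint highest row in a pair of libraries and listed at 0 in the third of that group. Its log2 fold change was -0.38 with all libraries (adjusted p = 0.930) and 2.93 without siSTRN3 replicate 3 (adjusted p = 0.00173). RNU1-2 stood at 0, 753 and 407 TPM in the libraries labelled siSTRN3, against 162, 126 and 197 TPM in siNC, with a log2 fold change of -0.71 (adjusted p = 0.860), and of 2.44 without siSTRN3 replicate 1 (adjusted p = 0.00933). RNU1-27P stood at 0, 376 and 407 TPM in the libraries labelled siSTRN3, against 162, 126 and 197 TPM in siNC, with a log2 fold change of -1.04 (adjusted p = 0.780), and of 1.94 without siSTRN3 replicate 1 (adjusted p = 0.00441). RNVU1-18, a variant-named gene with the RNU1-1 sequence, was the only U1 row above 0 in every library. It stood at 796, 376 and 407 TPM in the libraries labelled siSTRN3, against 162, 126 and 197 TPM in siNC (log2 fold change 2.28 ± 0.30 SE, adjusted p = 0.00419). In every library this was the shared value, which depends on how the U1 sum was divided among rows. The fold change is therefore not read as that of a single copy, nor as a larger rise than that of the U1 sum.

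Rows were also listed at 0 throughout one group. RNU1-28P, with the RNU1-1 sequence, stood at 796, 0 and 407 TPM in the libraries labelled siSTRN3 and at 0 in all siNC libraries. A row named only U1 stood at 0 in all libraries labelled siSTRN3, against 162, 126 and 197 TPM in siNC. RNVU1-7, which differs from RNU1-1 by T150C, stood at 0 in all libraries labelled siSTRN3, against 162, 126 and 0 TPM in siNC. RNU1-3 was listed at 0 in the libraries labelled siSTRN3, against 0, 126 and 0 TPM in siNC. Each of these 4 rows equalled RNU1-1 within 0.1 TPM in every library where both were above 0, so no level of a single copy can be read from them. The pseudogenes RNU1-106P and RNU1-39P were above 0 only in siNC replicate 2 (47.4 TPM) and siNC replicate 3 (36.3 TPM), and RNVU1-6 only in siSTRN3 replicate 1 (37.4 TPM). RNU1-4 stood at 0, 0 and 407 TPM in the libraries labelled siSTRN3, against 0, 126 and 197 TPM in siNC.

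Summed by sequence, the 7 rows with the RNU1-1 sequence held 2388, 2259 and 2037 TPM in the libraries labelled siSTRN3, against 650, 758 and 984 TPM in siNC. The groups did not overlap. The 3 rows named only U1 held 116, 38.9 and 520 TPM in the libraries labelled siSTRN3, against 364, 253 and 197 TPM in siNC, and the 4 located rows with another sequence held 37.4, 0 and 0 TPM in the libraries labelled siSTRN3, against 162, 174 and 36.3 TPM in siNC. This split was made after the values were seen and carries no test. The annotation holds 8 transcripts with the RNU1-1 sequence, 7 of them with a unique symbol, so the sum of 7 rows is not complete. Rows outside it, among them RNVU1-7 and rows named only U1, held the same shared value as RNU1-1 in siNC libraries. The wider gap between the groups in the 7 rows is therefore not read as a larger rise than that of all U1 rows. One of the rows named only U1 did not share the common value: it stood at 116, 38.9 and 113 TPM in the libraries labelled siSTRN3, against 39.2, 0 and 0 TPM in siNC. Its call (log2 fold change 4.99, adjusted p = 0.0424) was lost without any one library except siNC replicate 1 (adjusted p = 0.0691 to 0.123).

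**Figure D2:**
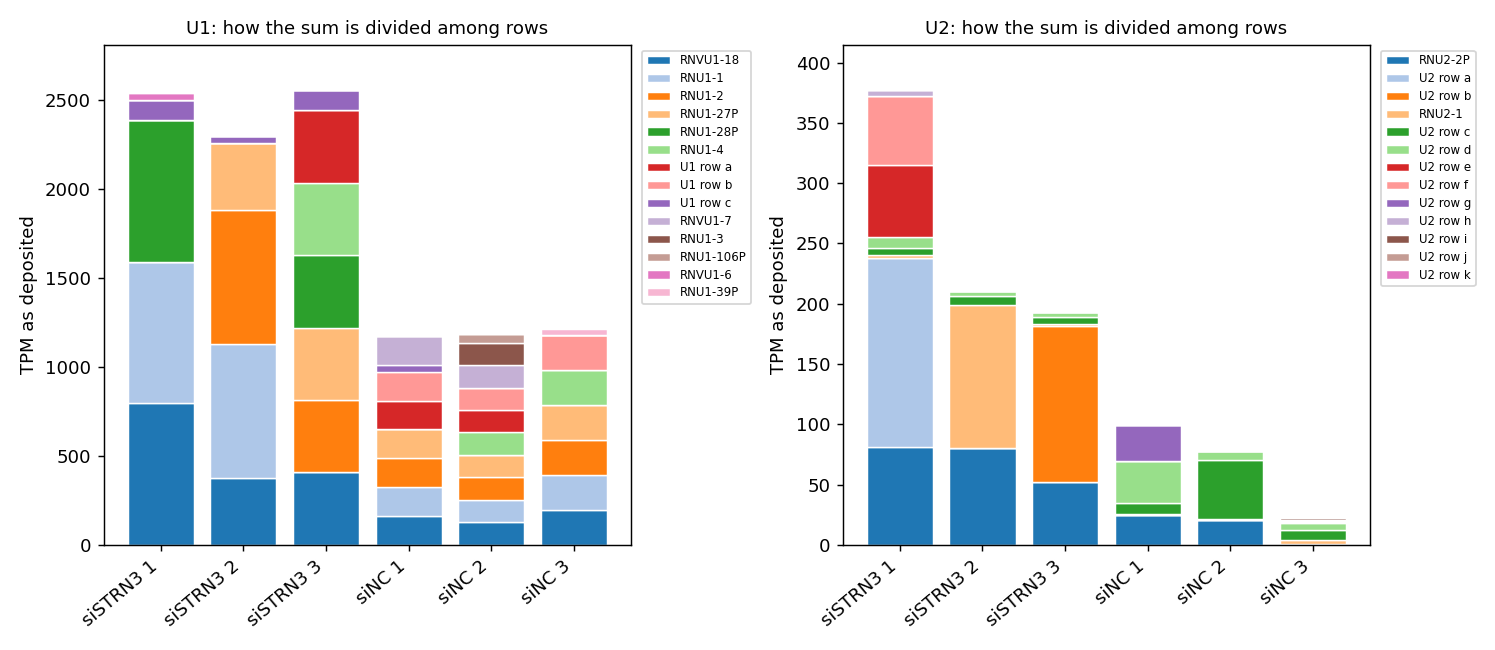
TPM as deposited of each U1 row (left) and each U2 row (right), stacked by library, with rows named only U1 or U2 lettered by their mean level. Most of U1 is cut into equal blocks whose number differs between libraries, 3 in siSTRN3 replicate 1 and 9 in siNC replicate 2. In siSTRN3 replicate 2 some blocks are double the others, and smaller blocks make up the rest of each stack. The stacks of the libraries labelled siSTRN3 reach 2298 to 2557 TPM against 1176 to 1217 TPM in siNC.

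Among the U2 rows RNU2-2P was the one with a sequence and a symbol of its own and the highest mean level. It stood at 81.4, 80.0 and 52.1 TPM in the libraries labelled siSTRN3, against 24.6, 20.6 and 0 TPM in the siNC libraries. The groups did not overlap, and siNC replicate 3 was listed at 0. The difference did not pass the threshold (limma, log2 fold change 3.64 ± 1.11 SE, adjusted p = 0.0598) but did so on the deposited scale (3.11, adjusted p = 0.0431) and without siNC replicate 3 (2.23, adjusted p = 0.00660). Over the other leave-outs the adjusted p was 0.0618 to 0.129. RNU2-2P lies at the start of WDR74, on the same strand, and WDR74 stood at 53.0, 52.8 and 49.9 TPM in the libraries labelled siSTRN3, against 81.7, 91.0 and 90.6 TPM in siNC, the opposite order to RNU2-2P on the deposited scale. On that scale 80.9% of all tested features were called lower. Relative to the median gene WDR74 overlapped between the groups and was not called (limma, log2 fold change -0.11, adjusted p = 0.206). Without RNU2-2P the U2 rows summed to 296, 131 and 141 TPM in the libraries labelled siSTRN3, against 74.6, 57.0 and 24.2 TPM in siNC, and these did not overlap either.

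RNU2-1, the reference U2 copy, stood at 2.34, 119 and 1.33 TPM in the libraries labelled siSTRN3, against 1.44, 0.98 and 2.91 TPM in siNC. Its level was thus high in siSTRN3 replicate 2 alone (log2 fold change 2.32 ± 1.45 SE, adjusted p = 0.296). In siSTRN3 replicate 1 the U2 sum lay instead mainly in rows named only U2 (156, 59.3 and 57.4 TPM), and in siSTRN3 replicate 3 in another such row (130 TPM), which was listed at 0 in every other library. A further 2 rows named only U2 were above 0 in all libraries. The first stood at 6.08, 7.41 and 5.60 TPM in the libraries labelled siSTRN3, against 8.52, 49.2 and 8.66 TPM in siNC, and the second at 9.32, 4.86 and 4.66 TPM in the libraries labelled siSTRN3, against 34.9, 6.75 and 5.22 TPM in siNC; neither passed the test (adjusted p = 0.520 and 0.842). In siNC replicate 3, 7 of the rows named only U2 stood at 1.06 TPM each.

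U4 and U6 were represented only by pseudogene rows. RNU4-25P, a U4 pseudogene by its symbol, stood at 0, 0 and 4.38 TPM in the libraries labelled siSTRN3, against 4.47, 7.94 and 0 TPM in the siNC libraries. The groups overlapped (class log2 fold change -0.79 ± 0.96 SE, adjusted p = 0.597). It lies within the long non-coding RNA gene PVT1, on the other strand, which stood at 65.3, 59.2 and 67.1 TPM in the libraries labelled siSTRN3, against 106, 89.8 and 160 TPM in siNC. On its own strand RNU4-25P overlaps the pseudogene AC103705.1, which stood at 0 TPM in all libraries labelled siSTRN3, against 0, 2.06 and 3.5 TPM in siNC. RNU6-1219P and RNU6-408P, U6 pseudogenes by their symbols, summed to 1.29, 0.72 and 1.26 TPM in the libraries labelled siSTRN3, against 1.07, 1.04 and 0.94 TPM in siNC. As deposited these overlapped, and the rise relative to the median gene did not pass the threshold (log2 fold change 0.37 ± 0.14 SE, adjusted p = 0.115), though it did without siSTRN3 replicate 2 (0.51, adjusted p = 0.0299). RNU6-408P was the member nearest to the limit of detection, with at most 0.19 TPM in any library; rows just outside the choice stood at 0 in all 6.

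The reference copies of the other snRNAs were listed at 0. All 17 copies looked up by symbol, among them RNU4-1 and RNU4-2, RNU5A-1 and RNU5B-1, RNU6-1 and RNU6-2, RNU7-1, RNU11, RNU12, RNU4ATAC and RNU6ATAC, were at 0 TPM in all 6 libraries, and no row of U5, U7, U11, U12, U4atac or U6atac was above 0. Splicing needs most of these RNAs, so a value of 0 is not read as absence. These 17 rows are 63 to 150 bases long, whereas U1 rows above 0 are 164 to 165 bases and U2 rows above 0 are 191 to 192 bases long. Of 1727 snRNA rows of at most 150 bases 2 were above 0 in any library (0.116%), against 28 of 254 longer ones (11%). The longer rows above 0 were nearly all U1 and U2, with 27 of 190 above 0 (14.2%), against 1 of 64 longer rows of other names (1.56%). Of these 64 rows 51 are named U3, whose RNA is not spliceosomal, and all 51 were at 0. The shares of 11% and 1.56% are therefore not those of spliceosomal snRNA rows alone, for which they would be higher. Over all rows of the table, 16 of 6624 rows of at most 150 bases were above 0 (0.242%), against 77 of 999 rows of 151 to 200 bases (7.71%). How RNA length acted on which rows received a value was not tested. The name pattern also takes in 51 rows named U3 and 22 named U8, whose RNAs act in the nucleolus and not in splicing. All were at 0, and the U3 rows are 192 to 239 bases long. U3 RNA itself had values under the name SNORD3A, which the pattern does not match. That row stood at 65.1 to 133 TPM in the libraries labelled siSTRN3 and 29.9 to 48.9 TPM in siNC. The zeros of the rows named U3 are therefore not read as absence of U3 RNA.

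**Figure D3:**
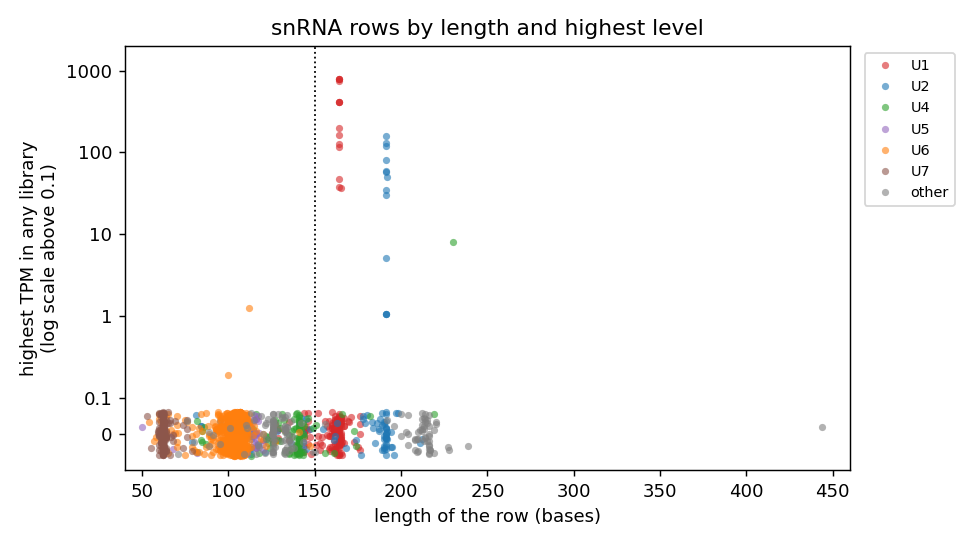
Length in bases of all snRNA rows (x axis) against the highest TPM in any library (y axis, log scale above 0.1 TPM); rows at 0 are spread slightly up and down to show their number, and the dotted line marks 150 bases. Apart from 2 U6 pseudogenes, every row above 0 lies to the right of the line, at the lengths of U1, U2 and 1 U4 pseudogene.

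Other structural RNAs without a poly(A) tail were higher in the same libraries. RN7SK, which encodes the 7SK RNA that keeps P-TEFb inactive, stood at 1748, 1765 and 1708 TPM in the libraries labelled siSTRN3, against 761, 572 and 661 TPM in siNC (log2 fold change 2.05 ± 0.099 SE, adjusted p = 1.11e-04). RMRP, the RNA of RNase MRP, rose by 2.03 on its higher row and RPPH1, the RNA of RNase P, by 1.71. SNORD3A, the U3 RNA of the nucleolus, rose by 1.76, and RN7SL1 and RN7SL2, the 7SL RNA of the signal recognition particle, by 1.33 and 1.17. Ratios to RN7SK were added after the values were seen. The ratio of U1 to RN7SK was 1.45, 1.30 and 1.5 in the libraries labelled siSTRN3, against 1.55, 2.07 and 1.84 in siNC. It was lower in the libraries labelled siSTRN3 in all 3, with groups that did not overlap (log2 difference -0.35, exact 2-sided permutation test p = 0.1, the smallest possible). With pseudogene symbols and rows named only U1 left out the groups overlapped (-0.31, exact permutation p = 0.3). The ratio of U2 to RN7SK overlapped between the groups (log2 difference 0.72, exact permutation p = 0.6). The part that the larger share of ribosomal and other structural RNA had in the U1 and U2 values was not tested.

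Messenger RNAs of the proteins that make, process or bind snRNAs moved in both directions. Of 121 tested genes on 10 lists 16 rose and 20 fell (13.2% and 16.5%), against 11% and 10.6% of all tested features, with a median log2 fold change of -0.050 for the lists and -0.0070 for all features. On the deposited scale 1 of the 121 was higher and 115 of the 121 were lower, against 1% and 80.9% of all features. The median log2 fold change there was -0.64 for the lists and -0.56 for all features. Of the 14 risen genes named here LSM7 alone was called higher on the deposited scale, SNRNP27 and SSB were at 0.11 and 0.041 there without a call, and the other 11 had negative values. The number that rose was 9 without siSTRN3 replicate 2 and 8 without siNC replicate 1 or replicate 3, and the number that fell was 12, 11 and 10 without siNC replicates 1, 2 and 3.

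The first lists hold factors that start and end snRNA transcription. Of 13 genes of the snRNA-activating complex and other promoter factors 2 rose (15.4%) and none fell, against 11% and 10.6% of all tested features. Neither this list nor those below were tested against these shares. ICE1, of the little elongation complex, rose by 0.31 (adjusted p = 0.0278) and BDP1, a subunit of the polymerase III factor TFIIIB, by 0.37 (adjusted p = 0.0437). Both calls were weak: that of BDP1 was lost without any one library (adjusted p = 0.0532 to 0.132) and that of ICE1 without any except siSTRN3 replicate 1 (0.0518 to 0.0900). Of 14 subunits of Integrator, which cuts the end of polymerase II snRNAs, 1 rose and 3 fell (7.14% and 21.4%). INTS3 stood at 12.4, 12.8 and 11.4 TPM in the libraries labelled siSTRN3, against 26.1, 24.3 and 24.4 TPM in siNC (log2 fold change -0.36, adjusted p = 0.0104), INTS1 fell (-0.29, adjusted p = 0.0111) and INTS9 fell (-0.32, adjusted p = 0.0169). INTS14 rose (0.22, adjusted p = 0.0142). The calls of INTS9 and INTS14 were lost without siNC replicate 1 or 3 (adjusted p = 0.0516 to 0.0616).

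Of 22 genes for the export of snRNAs, their cap and their assembly by the SMN complex, 3 rose and 7 fell. These are 13.6% and 31.8%, against 11% and 10.6% of all tested features. NCBP2, the small subunit of the nuclear cap-binding complex, rose (0.20, adjusted p = 0.0100), whereas NCBP1, of the same complex, fell (limma, -0.15, adjusted p = 0.0260). The export receptor gene XPO1 rose as well (0.21, adjusted p = 0.0228, but 0.0524 to 0.0802 without any one library except siNC replicate 2). SMN2 fell (-0.26, adjusted p = 0.0133), although it shares nearly all its sequence with SMN1, so the division of reads between the pair is uncertain. STRAP, of the SMN complex, fell (-0.22, adjusted p = 0.0157; 0.0572 without siNC replicate 2). Among 7 tested genes of the Sm proteins, which ring the snRNAs made by polymerase II, SNRPD3 alone rose (0.20, adjusted p = 0.0252). Its call was lost without siSTRN3 replicate 1 or 2 or siNC replicate 1 or 3 (0.0593 to 0.0807).

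Of 14 genes for U6 processing and the LSm ring that U6 carries, 2 rose and 3 fell. These are 14.3% and 21.4%, against 11% and 10.6% of all tested features. LSM7 stood at 301, 300 and 283 TPM in the libraries labelled siSTRN3, against 236, 237 and 244 TPM in the siNC libraries. The groups did not overlap, and it was the 1 listed gene that was also higher on the deposited scale (log2 fold change 0.95 ± 0.039 SE, adjusted p = 4.73e-05; deposited 0.30). LSM4, of the same ring, stood at 176, 175 and 182 TPM in the libraries labelled siSTRN3, against 351, 381 and 350 TPM in siNC (-0.37 ± 0.034 SE, adjusted p = 0.00120). SSB, the La protein that binds the uridine-rich end of new polymerase III RNAs, rose by 0.67 (adjusted p = 0.00178). MEPCE, which caps 7SK and U6, fell (-0.16, adjusted p = 0.0202). Its call was lost without siSTRN3 replicate 1 or any one siNC library (0.0537 to 0.0676).

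Of 15 genes of the U1 and U2 particles none rose and 2 fell (13.3%), against 11% and 10.6% of all tested features. SF3B3 and SF3B2, both of the SF3b part of the U2 particle, were those. SF3B3 stood at 56.2, 60.6 and 58.4 TPM in the libraries labelled siSTRN3, against 139, 152 and 147 TPM in siNC (log2 fold change -0.66 ± 0.047 SE, adjusted p = 4.56e-04), and SF3B2 fell by 0.35 (adjusted p = 6.45e-04). Of 16 genes of the U4, U5 and U6 particle 4 rose and 3 fell. SNRNP27 rose (0.75, adjusted p = 0.00106), as did PPIH (0.25, adjusted p = 0.00535) and TXNL4A (0.20, adjusted p = 0.00905), while PRPF8, the core protein of the spliceosome, fell (-0.26, adjusted p = 0.00525).

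In the minor spliceosome 1 of 9 genes rose, SNRNP25 (0.20, adjusted p = 0.0204; 0.0528 to 0.0745 without siSTRN3 replicate 1 or 2 or siNC replicate 1 or 2), and 1 fell, SCNM1 (-0.31, adjusted p = 0.0198; 0.0681 and 0.0683 without siNC replicates 2 and 3). Of 5 genes of the U7 particle and histone message processing, SLBP, which binds the histone stem-loop, rose (0.36, adjusted p = 0.00359). Over all tested features 11% rose and 10.6% fell, which is the background for each short list in this paragraph. Of 6 genes of RNA decay, EXOSC10, the nuclear exonuclease of the exosome, fell (-0.22, adjusted p = 0.00988), and EXOSC3 rose (0.15, adjusted p = 0.0469; 0.0594 to 0.141 without any one library except siSTRN3 replicate 3).

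**Figure D4:**
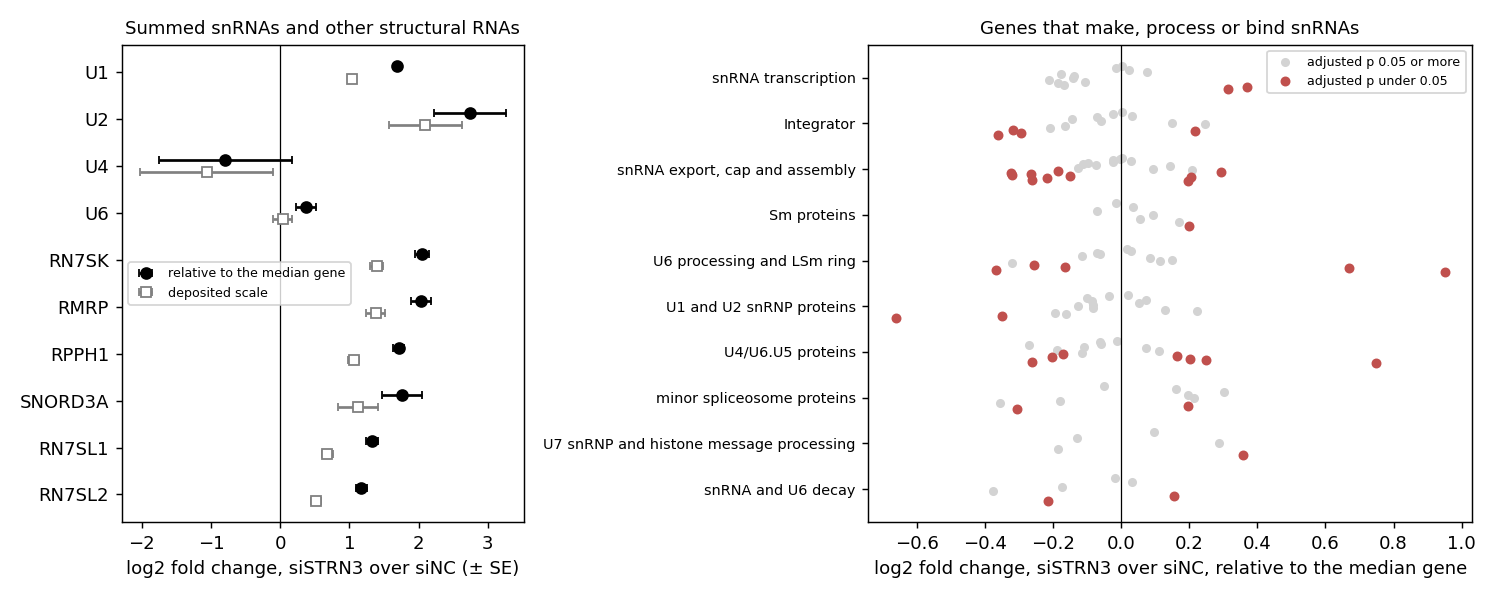
Left, log2 fold change of siSTRN3 over siNC (x axis, ± SE) for the summed snRNAs and other structural RNAs, relative to the median gene (filled circles) and as deposited (open squares). Right, log2 fold change relative to the median gene of each tested gene on 10 lists, red where adjusted p was under 0.05; U1 stood at 1.70 and U2 at 2.74, beyond the highest listed gene, LSM7 at 0.95.

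In the authors' deposited table none of the 30 rows was marked as significant. That table gives an adjusted p under 0.05 for 2 of them, 0.0011 for RNVU1-18 and 0.0287 for RNU2-1, and an adjusted p of 1 for 23. With single rows tested one by one here, 14 of the 30 passed the filter on low values. Of these 2 were called higher (RNVU1-18 and the U1 row without the common value) and 1 lower, against 11% and 10.4% of all rows tested. RNVU1-18 held the shared value in every library, so its call is not read as a rise of that copy. The lower one was the row named only U1 that was listed at 0 in the libraries labelled siSTRN3. It passed the filter only through the siNC libraries, where it equalled RNU1-1 within 0.1 TPM, so its call is not read as a fall. RNU1-28P, listed at 0 in all siNC libraries, did not pass the filter. These counts therefore say nothing about the direction of U1 or U2, whose sums both rose.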

How the data were processed

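RNA was sequenced from 3 siSTRN3 and 3 siNC libraries of HGC-27 cells, grouped by their titles. Column headers give the unit of the values that the authors deposited as TPM, although the table's name says FPKM, and named rows sum to 966433 to 987429 TPM; the submitters' processing notes list HISAT2, Cufflinks, RSEM and GRCh38.p10 without roles, and neither strand nor multiple matching is stated for the quantification. The authors' deposited table also holds p-values, for which its name gives DESeq2, and a row length in another column. Depth is unknown for TPM. Rows without a gene name (2) were left out.

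The rows of one snRNA were summed, and limma-trend (R 4.3.3 with limma 3.58.1 and the data-table package 1.17.8) was run on log2(TPM + 1) of the whole table, siSTRN3 over siNC, for features that reached 1 TPM in 3 libraries or more. Each library was first multiplied by 1 factor that gave all the same median over these features. P-values were adjusted by Benjamini-Hochberg over the whole table, with a threshold of 0.05; the same fit was run on single rows. On this scale fold changes of low rows are understated. Ratios were tested with an exact permutation test. The fit was tested on simulated data, where it called 65 of 100 features changed 1.5-fold and 86 of 100 changed 2-fold, with 4 false calls. A feature that was not called is therefore not read as unchanged. Planned ratios that need U12, or U4 against U6, could not be formed, since those sums are 0 in at least some libraries.

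Sequences, positions and gene types were looked up in GENCODE release 29 (GRCh38) where a symbol was unique; identity was counted on global alignments (Biopython 1.88). Tables were handled with pandas 2.3.3 and numpy 2.4.6 in Python 3.11.15, and plots drawn with matplotlib 3.10.9. The genes named are every summed snRNA, the 4 highest rows of each, rows at 0 in one group with a mean of at least 10 TPM in the other, and up to 4 called genes of each list with the smallest adjusted p. RNU1-4, NCBP1 and some rows named only U1 or U2 fall outside this rule and were named after their values were seen. The members and the lists were chosen with earlier results of these data known.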

Additional observations from a re-analysis of the deposited data

How the results depend on the processing

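U1 kept its direction and its call under all alternatives run (log2 fold change 1.05 to 1.93), and U2 (2.10 to 3.47) under all but one: with pseudogene and bare symbols left out, U2 rests on RNU2-1 alone (2.32, adjusted p = 0.293). The highest values, 1.93 for U1 and 3.47 for U2, came from leaving out the rows named only U1 or U2. Rows left out by symbol can share reads with rows kept, so these settings cannot decide whether either sum rose. Leaving out single libraries gave 1.67 to 1.74 for U1, 2.14 to 3.13 for U2, -1.69 to -0.20 for U4 and 0.29 to 0.51 for U6 (0.51 past the threshold without siSTRN3 replicate 2). The log2 difference in the ratio of U2 to U1 was 0.44 to 1.48, of U1 to RN7SK -0.46 to -0.25 and of U2 to RN7SK 0.10 to 1.05. Over all features, 1425 were higher and 1373 lower; these were 130 and 10515 as deposited, 949 higher without a filter, 930 and 868 with the replicate block, and 796 to 1114 higher and 719 to 1087 lower without one library. Pathway genes higher were 1 as deposited, 10 with protein-coding TPM, 10 without a filter and 9 with the block (8 to 12 without one library); 115 were lower as deposited (10 to 17 without one library). Single snRNA rows called higher were 3 as deposited and 3 with the replicate block (RNU2-2P added in both, adjusted p = 0.0467 with the block), 1 with a pseudocount of 0.1, 1 without a filter and 1 to 3 without one library.

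As deposited, BDP1 (-0.077), EXOSC3 (-0.48), ICE1 (-0.24), INTS14 (-0.40), NCBP2 (-0.44), PPIH (-0.39), SLBP (-0.28), SNRNP25 (-0.43), SNRPD3 (-0.45), TXNL4A (-0.44) and XPO1 (-0.44) turned negative, since that scale moves the median gene to -0.56. Single rows not called with all libraries took both signs without one library: RNU1-1 -2.05 to 2.93 (the highest without siSTRN3 replicate 3), RNU1-2 -2.51 to 2.44 and RNU1-27P -2.55 to 1.94 (the highest without siSTRN3 replicate 1), and 2 rows named only U2 -0.67 to 0.57 and -1.0 to 0.18 (the highest without siNC replicate 1 and siNC replicate 2). Same-numbered libraries did not deviate together (correlations of 0.045, 0.015 and -0.065), so the numbers were not taken as pairs. With the replicate block U1 stood at 1.70 (adjusted p = 4.52e-04) and U2 at 2.74 (adjusted p = 0.0113). Groups of 3 libraries limit every p-value, and TPM gives no depth.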
